A study of Mus musculus with 9 samples.

Results

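Non-methylated islands (NMIs) are stretches of DNA whose CpG sites lack methylation. The narrow NMIs at protein-coding transcription start sites (TSSs) described here were chosen by their measured width, below the lower quartile of width over the whole list of 13491 NMIs (572.5 bp), and by holding the 5′ end of at least 1 transcript of a protein-coding gene in GENCODE M21. There were 582 of them among 13489 NMIs on chromosomes 1 to 19 and X (4.31%), and 593 protein-coding genes had a TSS in one. The NMIs were called from 1 BioCAP library of C127 cells, a mouse mammary epithelial line that carried no treatment per the labels. In BioCAP, sonicated DNA is pulled down by the CXXC domain of KDM2B, a reader of CpG sites without methylation. The series holds 9 samples, and the BioCAP input, the ATAC libraries with their input and the libraries of 4-thiouridine-labelled RNA were not analysed here. The study asked how the SET1 complex finds its sites on chromatin, for which non-methylated DNA is a candidate signal.

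Most cytosines of CpG sites in mammalian genomes are methylated, and because methylated cytosine mutates readily, CpG has become rare. CpG islands are the exceptions: they escape methylation in most cells, keep a CpG content near that given by their base composition, and surround the TSSs of most broadly expressed genes. Proteins with a CXXC domain, among them CFP1 and KDM2B, bind such DNA and bring histone-modifying complexes to it. Many genes have several TSSs, and a TSS inside the gene can start a shorter transcript from a promoter of its own.

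The sequences below show how different the CpG content of narrow NMIs could be. CpG sites are in capitals, every sequence reads 5′ to 3′ on the strand of the gene, and positions are those of mm10 counted from 1. The first pair are whole NMIs from the CpG-rich end, at Lhfpl4, which encodes an auxiliary protein of GABA-A receptors (chr6:113195280-113195506, minus strand, 29 CpG sites in 227 bp), and at Fam49a (chr12:12262080-12262234, plus strand, 21 CpG sites in 155 bp). The second pair are whole NMIs from the CpG-poor end, at Pilra, which encodes an inhibitory immunoglobulin-like receptor (chr5:137831396-137831549, minus strand, 2 CpG sites in 154 bp), and at Il17rc, which encodes a receptor chain for interleukin 17 (chr6:113471416-113471580, plus strand, 4 CpG sites in 165 bp).
Lhfpl4: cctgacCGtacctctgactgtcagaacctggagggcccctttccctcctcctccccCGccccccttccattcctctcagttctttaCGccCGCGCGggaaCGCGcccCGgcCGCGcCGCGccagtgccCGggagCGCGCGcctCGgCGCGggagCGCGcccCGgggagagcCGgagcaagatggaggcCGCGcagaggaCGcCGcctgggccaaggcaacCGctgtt
Fam49a: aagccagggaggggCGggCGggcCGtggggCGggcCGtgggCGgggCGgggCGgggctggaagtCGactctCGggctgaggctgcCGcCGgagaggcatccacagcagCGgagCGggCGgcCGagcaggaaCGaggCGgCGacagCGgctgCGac
Pilra: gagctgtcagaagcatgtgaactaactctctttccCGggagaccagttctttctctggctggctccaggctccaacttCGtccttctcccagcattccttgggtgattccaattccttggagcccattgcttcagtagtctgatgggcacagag
Il17rc: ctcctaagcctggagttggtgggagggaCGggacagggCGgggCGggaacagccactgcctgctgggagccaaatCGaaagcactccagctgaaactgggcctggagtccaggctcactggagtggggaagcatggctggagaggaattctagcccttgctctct

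The next 4 sequences are windows of 300 bp, from 250 bases before the TSS to 50 bases from the TSS onward. Dst, which encodes the cytoskeletal linker dystonin (chr1:34236346-34236645, plus strand, 20 CpG sites), and Ppp1r9a, which encodes the actin-binding protein neurabin (chr6:5110409-5110708, plus strand, 12 CpG sites), show internal TSSs far from the outermost one. Slc47a2, which encodes an exporter of organic cations (chr11:61342535-61342834, minus strand, 32 CpG sites), and Il2rb, which encodes the beta chain of the interleukin 2 receptor (chr15:78493707-78494006, minus strand, 4 CpG sites), show TSSs in a pair of NMIs of nearly equal width. These TSSs are internal too, 276 and 1515 bp from the outermost one. Their windows, most of which lie outside the NMIs, differ widely in CpG sites, while the NMIs themselves held 7 CpG sites in 117 bp and 4 in 119 bp.
Dst: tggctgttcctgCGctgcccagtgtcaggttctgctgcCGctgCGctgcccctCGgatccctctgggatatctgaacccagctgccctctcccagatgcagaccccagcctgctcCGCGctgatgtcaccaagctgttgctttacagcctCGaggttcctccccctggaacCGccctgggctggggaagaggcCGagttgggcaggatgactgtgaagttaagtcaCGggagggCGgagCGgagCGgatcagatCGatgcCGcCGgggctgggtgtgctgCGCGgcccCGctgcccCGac
Ppp1r9a: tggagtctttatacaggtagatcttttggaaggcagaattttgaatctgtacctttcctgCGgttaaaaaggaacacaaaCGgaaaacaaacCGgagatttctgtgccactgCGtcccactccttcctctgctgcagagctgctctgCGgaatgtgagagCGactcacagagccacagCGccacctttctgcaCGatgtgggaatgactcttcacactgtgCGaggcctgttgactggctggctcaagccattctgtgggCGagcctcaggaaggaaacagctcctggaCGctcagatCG
Slc47a2: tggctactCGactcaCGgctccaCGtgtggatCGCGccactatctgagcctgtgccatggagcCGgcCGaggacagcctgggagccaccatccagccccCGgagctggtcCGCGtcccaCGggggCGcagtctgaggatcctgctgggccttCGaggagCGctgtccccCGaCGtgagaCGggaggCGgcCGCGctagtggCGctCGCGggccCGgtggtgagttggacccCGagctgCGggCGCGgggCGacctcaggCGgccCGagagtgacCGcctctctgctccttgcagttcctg
Il2rb: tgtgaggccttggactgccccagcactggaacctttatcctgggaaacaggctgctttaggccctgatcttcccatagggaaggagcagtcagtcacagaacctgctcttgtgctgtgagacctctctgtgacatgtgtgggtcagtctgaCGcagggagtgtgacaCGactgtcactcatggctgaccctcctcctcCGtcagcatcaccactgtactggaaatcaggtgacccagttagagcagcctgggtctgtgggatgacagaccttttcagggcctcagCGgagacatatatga

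Width chose the members and is given here as a description. The 582 narrow NMIs had a median width of 445 bp, and the middle 50% of them had 353 to 518 bp. The narrowest lay at Slc47a2 (117 bp, chromosome 11, 61342471 to 61342587), at Tuft1, which encodes the enamel protein tuftelin (118 bp, chromosome 3, 94658762 to 94658879), at Il2rb (119 bp, chromosome 15, 78493650 to 78493768), and at Lage3, which encodes a subunit of a tRNA-modifying complex (122 bp, chromosome X, 74353563 to 74353684). They were followed by Grip2, a scaffold of glutamate receptors (123 bp), Lcp1, an actin-bundling protein of leukocytes (124 bp), Adgra1, an adhesion receptor (126 bp), and Myl9, a myosin light chain (131 bp). At the largest width below the limit lay 3 NMIs, at Xkr8, Ccdc97 and Man2b1, with 5.94, 5.59 and 4.72 CpG sites per 100 bp. At a width 1 bp larger, just outside it, lay 4, of which those at Matn3, Lhpp and Zfp866 had 6.11, 6.98 and 6.63 CpG sites per 100 bp. All 3 just inside held an outermost TSS, as did the 3 named just outside, that of Zfp866 through the model Gm20422.

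Few NMIs at protein-coding TSSs were narrow, and few narrow NMIs held a protein-coding TSS. Of 9581 NMIs at protein-coding TSSs, 6.07% were narrow (exact 95% binomial interval 5.60 to 6.57%), 8622 were wider but under 2500 bp (mid-width) and 377 had 2500 bp or more (broad). Of 3373 narrow NMIs, 17.3% held a protein-coding TSS (16.0 to 18.6%) and the other 2791 did not. Intervals on shares and medians cover counting error only, since there was 1 library and NMIs are not replicates, and no p-values were computed. In the plot of TSS content by width, the share of NMIs with a protein-coding TSS climbed with width throughout the narrow range, from 3.73% (2.63 to 5.13%) at 200 bp or less to 45.3% (40.3 to 50.3%) at 501 bp to the limit, and went on to 66.0% (62.8 to 69.2%) from there to 700 bp. A wider interval also has more room for a TSS, and that part of the climb was not tested.

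**Figure D1:**
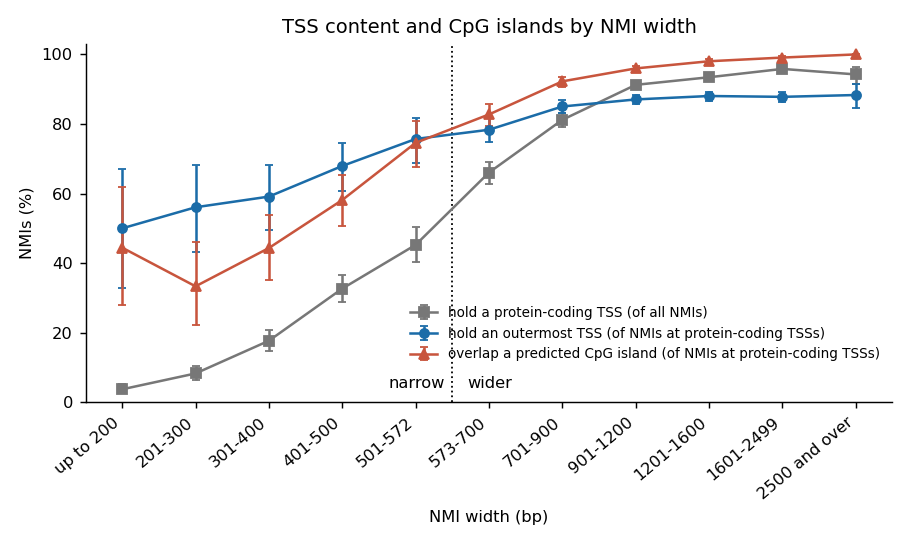
Percent of NMIs (y axis) in each class of width in bp (x axis) that held a protein-coding TSS (grey squares, of all NMIs), that held an outermost TSS (blue circles, of NMIs at protein-coding TSSs) or that overlapped a predicted CpG island (red triangles, of the same NMIs), with exact 95% binomial intervals and a dotted line at the width limit. All 3 shares were lower among narrow NMIs, and the outermost share went from 50.0% at 200 bp or less to 75.7% at 501 bp to the limit with no step at the limit. The shares were not adjusted for the room that a wider NMI has.

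The CpG content of narrow NMIs at protein-coding TSSs lay between those of wider NMIs at TSSs and of narrow NMIs elsewhere. They held a median of 25 CpG sites (95% interval 24 to 26, n = 582), against 82 (81 to 83) in mid-width NMIs and 9 (8 to 9) in narrow NMIs without a protein-coding TSS. Per 100 bp the medians were 5.81 (5.57 to 6.07), 6.95 (6.90 to 7.01) and 3.42 (3.37 to 3.47) CpG sites, and broad NMIs had 6.83 (6.61 to 7.12). The ratio of observed to expected CpG, which compares the CpG count with that given by the C and G content, had a median of 0.68 (0.66 to 0.69) in narrow NMIs at protein-coding TSSs and 0.77 (0.76 to 0.77) in mid-width NMIs. It was 0.52 (0.51 to 0.53) in narrow NMIs without a protein-coding TSS. The GC content of whole NMIs differed little between these widths at TSSs: its median was 60.65% in narrow NMIs and 60.82% in mid-width NMIs, while narrow NMIs without a protein-coding TSS had 52.6% (52.3 to 52.9%). This holds for whole NMIs of unequal length, and in windows of equal length at the TSS, given further on, the GC content was lower at narrow than at mid-width NMIs.

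The spread among the narrow NMIs was wide. The middle 50% of them held 4.60 to 7.38 CpG sites per 100 bp, and the extremes were 1.30 and 16.1. The highest density lay at Kcnmb4, which encodes a subunit of a calcium-activated potassium channel (91 CpG sites in 565 bp, chromosome 10, 116473574 to 116474138). It was followed by Zbtb42, a zinc-finger gene (14.2 per 100 bp), Pgbd5, derived from a piggyBac transposase (14.04), Eml5, a microtubule-associated protein (13.98), Nos1ap, an adaptor of neuronal nitric oxide synthase (13.9), Fam49a (13.5), Lhfpl4 (12.8) and Tuft1 (12.7). Of these 8, 7 held the outermost TSS and all lay in a predicted CpG island wider than themselves, and the NMI of Pgbd5 held an internal TSS 5320 bp from the outermost one.

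At the other end the lowest density lay at Pilra (1.30 per 100 bp, chromosome 5, 137831396 to 137831549), where the ratio of observed to expected CpG was 0.19. It was followed by Uap1l1 (2.02), Ptpa, an activator of protein phosphatase 2A (2.23), Rusc2 (2.23), Masp1, a protease of the lectin pathway of complement (2.32), Il17rc (2.42), Gstm7, a glutathione transferase (2.46), and Specc1 (2.47). Of these 8, 6 held internal TSSs only and none overlapped a predicted CpG island. Il17rc and Gstm7 were the exceptions that held an outermost TSS. Within the narrow range the density was nearly unrelated to width (Spearman's rho 0.0703 over 582 NMIs, which share 1 library, given as a description), and in mid-width NMIs rho was 0.135.

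**Figure D2:**
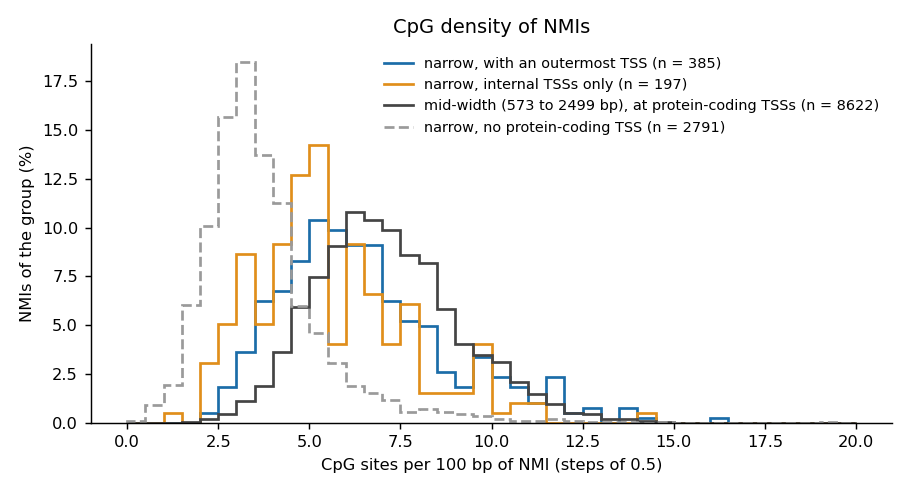
Percent of the NMIs of each group (y axis) by CpG sites per 100 bp of the NMI (x axis, steps of 0.5), for narrow NMIs with an outermost TSS (blue), narrow NMIs with internal TSSs only (orange), mid-width NMIs at protein-coding TSSs (black) and narrow NMIs without a protein-coding TSS (grey, dashed). The groups overlap, with medians of 6.13, 5.14, 6.95 and 3.42 per 100 bp in this order.

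CpG sites were concentrated at the middle of narrow NMIs and dropped to the surrounding level within a short distance, as the profile around the middle shows. The central 200 bp held a median of 7.5 CpG sites per 100 bp (7.0 to 7.5), and the stretch 500 to 1000 bp from the middle held 1.3 (1.2 to 1.3). Mid-width NMIs had 10.0 and 2.0 in the same stretches, and broad NMIs had 8.0 and 7.0. Beyond 1000 bp narrow NMIs (1.1, 1.0 to 1.15) and mid-width NMIs (1.05, 1.05 to 1.1) had about the same CpG content. The profile of narrow NMIs was uneven, with more CpG on the transcribed side. At 300 to 600 bp from the middle, stretches chosen after the profile was seen, narrow NMIs held a median of 1.67 CpG sites per 100 bp downstream (1.67 to 2.0) and 1.33 upstream (1.33 to 1.67), and the median difference within an NMI, downstream minus upstream, was 0.33. In mid-width NMIs that difference was -0.33.

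**Figure D3:**
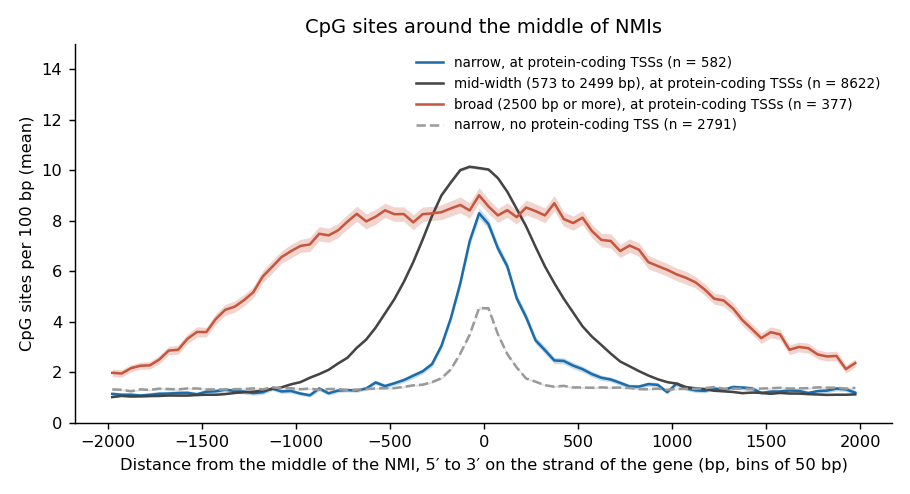
Mean CpG sites per 100 bp (y axis, line, with a band of 1 standard error over NMIs) in bins of 50 bp by distance from the middle of the NMI in bp (x axis, 5′ to 3′ on the strand of the gene), for the 4 groups of NMIs. Narrow NMIs without a protein-coding TSS have no such gene and are drawn on the plus strand. Narrow NMIs at protein-coding TSSs (blue, n = 582) had a lower and slimmer peak than mid-width NMIs (black, n = 8622), and a higher one than narrow NMIs elsewhere (grey, n = 2791).

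Narrow NMIs at protein-coding TSSs overlapped CpG islands predicted from sequence less often than wider ones did. An island here is the union of every 500-bp window that reached 55% GC and 0.65 observed/expected CpG, which gave 21346 islands. Narrow NMIs at protein-coding TSSs overlapped one in 331 of 582 cases (56.9%, 52.7 to 60.9%), against 95.7% (95.3 to 96.2%) of mid-width NMIs, 377 of 377 broad NMIs, and 9.57% (8.50 to 10.7%) of narrow NMIs without a protein-coding TSS. The island rule itself needs 500 bp of dense sequence, so narrow stretches meet it less easily, and with windows of 200 bp, 50% and 0.6 the share rose to 90.9% (88.3 to 93.1%), against 99.7% of mid-width NMIs and 52.3% of narrow NMIs without a protein-coding TSS. The 331 narrow NMIs that overlapped an island had a median width of 479 bp, their islands had one of 865 bp (828 to 888 bp), and a median of 54.6% of the island lay in the NMI (52.7 to 56.4%). The island was not the wider in every case: at Srrm4 the NMI had 545 bp and the island 526 bp. In mid-width NMIs 88.7% of the island lay in the NMI. This share is bounded by the width of the NMI, which chose the members, so the difference follows in part from that choice.

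The widest islands with a narrow NMI show how much of an island could be left out. At Casz1, a zinc-finger transcription factor, an island of 3546 bp held an NMI of 389 bp (11.0% of the island, chromosome 4, 148804174 to 148804562), and another TSS of the gene lay in an NMI of 1105 bp. At Col27a1, a fibrillar collagen, the island had 2620 bp and the NMI 368 bp (14.05%). At Man1c1, a mannosidase of the Golgi, they had 2086 and 570 bp (27.3%), at Kcnmb4 1890 and 565 bp (29.9%) and at Frat1, an inhibitor of the kinase GSK3, 1824 and 332 bp (18.2%). The smallest share belonged to Tuft1, where 8.66% of an island of 1363 bp lay in the NMI.

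Inside and outside islands, the narrow NMIs at TSSs had unlike CpG content, which the island rule fixes in part. The 331 in an island had a median of 6.99 CpG sites per 100 bp and the 251 outside had 4.42. The outermost TSS lay in 76.7% (71.8 to 81.2%) of those in an island and in 52.2% (45.8 to 58.5%) of those outside.

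The TSS in a narrow NMI was less often the outermost one of its gene than the TSS in a wider NMI. A narrow NMI held the most 5′ TSS of a protein-coding gene in 385 of 582 cases (66.2%, 62.1 to 70.0%), and the other 197 held internal TSSs only. The share was 86.6% (85.9 to 87.3%) in mid-width NMIs and 88.3% (84.7 to 91.4%) in broad NMIs. Within the narrow range it was 50.0% (32.9 to 67.1%, n = 36) at 200 bp or less, 56.1% (43.3 to 68.3%) at 201 to 300 bp, 59.1% (49.6 to 68.2%) at 301 to 400 bp, 67.9% (60.7 to 74.6%) at 401 to 500 bp and 75.7% (68.8 to 81.7%) at 501 bp to the limit. It was 78.3% (74.7 to 81.7%) from the limit to 700 bp, so neighbouring classes overlapped and the share rose over the range as a whole. A wider NMI also has more room to take in the outermost TSS, and these shares were not adjusted for width. The annotation bears on these shares: a TSS of the smaller basic set of transcripts lay in 486 of the 582, and when only those transcripts counted the outermost share was 80.5% (76.6 to 83.9%). The shares of mid-width and broad NMIs were not recomputed with the basic set, so 80.5% cannot be set against 86.6% and 88.3%.

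Narrow NMIs with the outermost TSS and those with internal TSSs differed in CpG content, and wider NMIs did so less. The 385 with an outermost TSS had a median width of 465 bp (447 to 477 bp), 6.13 CpG sites per 100 bp (5.82 to 6.42) and an observed/expected ratio of 0.70 (0.68 to 0.72). The 197 with internal TSSs had 404 bp (383 to 430 bp), 5.14 (4.93 to 5.41) and 0.61 (0.57 to 0.65). An island was overlapped by 66.0% (61.0 to 70.7%) of the first and 39.1% (32.2 to 46.3%) of the second. Among mid-width NMIs the medians per 100 bp were 6.96 (6.91 to 7.02) with the outermost and 6.90 (6.77 to 7.07) with internal TSSs, and 96.5% and 90.7% overlapped an island. Genes with internal narrow NMIs had more annotated TSSs, with a median of 7 (6 to 7) against 4 in genes whose outermost TSS lay in the narrow NMI. An NMI counts as internal only where its gene has another TSS further out, so the classes fix this difference in part. A transcript annotated as protein-coding, and not as a retained intron or another non-coding form, started in 98.7% (97.0 to 99.6%) of the narrow NMIs with an outermost TSS and in 75.6% (69.0 to 81.5%) of those with internal TSSs.

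The outermost TSS of genes with an internal narrow NMI was mostly not in an NMI. It lay in a wider NMI in 52 of 197 cases (26.4%, 20.4 to 33.1%), in another narrow NMI in 5 and in no NMI of the list in 140 (71.1%, 64.2 to 77.3%). The share with the outermost TSS in any NMI, 28.9% (22.7 to 35.8%), was close to the 24.1% (21.7 to 26.7%) of mid-width NMIs with internal TSSs, and the intervals overlapped. The TSS lay within an intron of other transcripts of the gene in 122 cases and in an exon of them in 75. Its median distance from the outermost TSS was 6751 bp (3765 to 9909 bp), it was over 1000 bp in 142 cases, over 10000 bp in 84 and over 100000 bp in 17. Where the outermost TSS lay in a wider NMI the median distance was 19181 bp (12629 to 26770 bp), and where it lay in no NMI it was 2476 bp (1133 to 6650 bp). No NMIs of the list were closer together than 464 bp, so a shorter distance could occur only where the outermost TSS lay in no NMI.

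**Figure D4:**
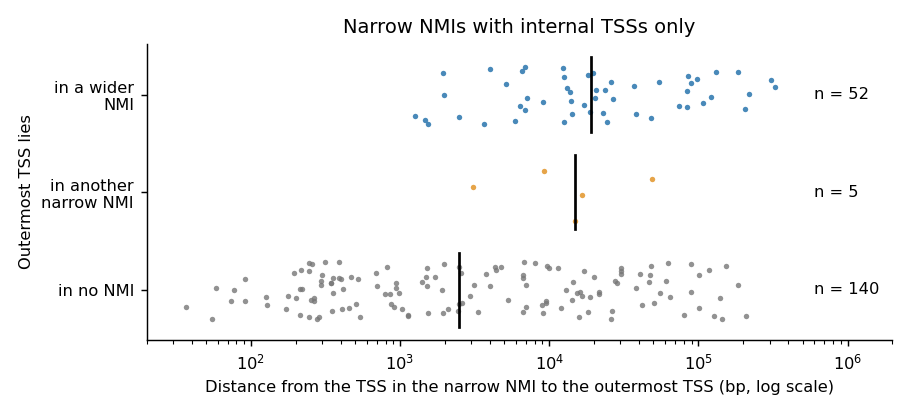
Distance in bp, on a log scale (x axis), from the TSS in each narrow NMI with internal TSSs only to the outermost TSS of its gene, by where the outermost TSS lay (y axis, vertical scatter for display only), with a black line at the median. Of 197 points, 52 had the outermost TSS in a wider NMI (median 19181 bp), 5 in another narrow NMI and 140 in none (median 2476 bp).

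The internal TSSs farthest from an outermost TSS with an NMI of its own belonged to large genes, as a choice by distance requires. At Dst the narrow NMI had 389 bp (chromosome 1, 34236432 to 34236820, 6.94 CpG sites per 100 bp) and lay 328371 bp from the outermost TSS, which was in an NMI of 1217 bp. At Maml3, a coactivator of Notch signalling, an NMI of 321 bp with 2.80 CpG sites per 100 bp lay 308502 bp from an outermost TSS in an NMI of 3960 bp. At Dclk1, a kinase related to doublecortin, the NMI had 410 bp and 3.17 CpG sites per 100 bp, and the outermost TSS lay 219394 bp away in an NMI of 1235 bp. Samd4, a translational repressor (484 bp, 204281 bp away), Fryl (311 bp, 185042 bp away) and Ssh2, a phosphatase of cofilin (561 bp, 132001 bp away), followed, with outermost TSSs in NMIs of 3280, 2077 and 1524 bp. In each of these 6 genes the NMI at the outermost TSS was the wider of the pair, which the choice of members by small width made likely in advance.

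In other genes the narrow NMI stood far from an outermost TSS without an NMI. At Ppp1r9a the NMI had 192 bp (chromosome 6, 5110483 to 5110674, 4.69 CpG sites per 100 bp) and lay 207742 bp from the outermost TSS. Srrm4, a regulator of neural splicing (545 bp, 144973 bp away), Rgs3, a regulator of G-protein signalling (218 bp, 139833 bp away), and Ablim1, an actin-binding LIM protein (530 bp, 117528 bp away), had no wider NMI at any TSS. Sept9, a septin (204 bp, 153519 bp away), had a wider NMI of 2214 bp at another TSS. At Akap2, an anchor of protein kinase A, the NMI had 361 bp, the outermost TSS lay 127591 bp away and another narrow NMI of 501 bp lay at a further TSS. Over all 197, 126 had no wider NMI at any TSS of the gene (64.0%, 56.8 to 70.7%).

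Narrow NMIs held fewer genes and TSSs than wider ones. They held TSSs of protein-coding genes on both strands in 10 of 582 cases (1.72%, 0.827 to 3.14%), against 12.1% (11.4 to 12.8%) of mid-width NMIs. They held TSSs of 2 or more protein-coding genes in 19 cases (3.26%, 1.98 to 5.05%), against 13.3% (12.6 to 14.1%). A TSS of a gene that is not protein-coding lay in 4.81% (3.22 to 6.88%), against 14.1% (13.4 to 14.9%) and 33.4% (28.7 to 38.4%) in broad NMIs. More than 1 distinct TSS lay in 64.1% (60.04 to 67.99%), against 82.7% (81.9 to 83.5%). Each of these counts has more room in a wider NMI, and they were not adjusted for width. The most genes, 3, shared the NMI of 559 bp at Asnsd1, Asdurf and Gm28551 on chromosome 1. Churc1 and Fntb shared 441 bp on chromosome 12, Ccdc40 and Tbc1d16 shared 184 bp on chromosome 11, and Zfp87 shared 542 bp on chromosome 13 with the gene model Gm26965. A pair of gene entries named Arhgef4 shared 401 bp.

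Narrow NMIs reached further into the gene than upstream of it in most cases. From the TSS nearest the middle they extended a median of 230 bp downstream (220 to 242 bp) and 190 bp upstream (178 to 198 bp), against 667 and 492 bp in mid-width NMIs. They lay further downstream than upstream in 59.3% (55.2 to 63.3%), against 69.9% (69.0 to 70.9%) of mid-width and 57.3% (52.1 to 62.3%) of broad NMIs. Where a coding transcript started in the NMI, its start codon lay in it too in 48.8% (44.5 to 53.1%) of narrow NMIs and in 69.7% (68.7 to 70.7%) of mid-width NMIs. A wider NMI has more room for a start codon, and these shares were not adjusted for width. Repeats made up a median of 4.09% of a narrow NMI (3.72 to 4.55%) and 5.67% (5.56 to 5.81%) of mid-width NMIs. High repeat shares lay at Myo7a, a myosin of sensory hair cells (44.0%), Dlg4, a scaffold of the synapse (37.9%), Rita1 (30.1%) and Brsk1, a kinase of neuronal polarity (28.2%), and all but Brsk1 were internal.

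Few narrow NMIs had another NMI close by. The smallest gap between NMIs of the list was 464 bp, so closer neighbours could not be counted. Whether a narrow NMI is part of a larger stretch was not tested. Another NMI lay within 1000 bp in 18 of 582 cases (3.09%, 1.84 to 4.84%), against 1.88% (1.60 to 2.19%) in mid-width NMIs and 4.73% (3.97 to 5.58%) in narrow NMIs without a protein-coding TSS, and the first of these intervals overlapped both others. The closest was 465 bp away, at Rrp9, a component of a small nucleolar ribonucleoprotein, followed by Tuft1 and Ampd2, an AMP deaminase (both 483 bp), Rusc2 (505 bp) and Ggta1, a galactosyltransferase. At Ampd2 and Rusc2 the gene also had a wider NMI at its outermost TSS, 1256 and 1470 bp away.

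The 300-bp windows at TSSs, from 250 bases before to 50 from the TSS, gave a comparison of equal lengths. At TSSs in narrow NMIs they held a median of 5.17 CpG sites per 100 bp (5.0 to 5.33, n = 582), against 8.67 (8.67 to 9.0) in mid-width NMIs, 9.33 (9.0 to 9.67) in broad NMIs and 1.33 at 12418 outermost TSSs in no NMI. The ratio of observed to expected CpG was 0.63 (0.61 to 0.65), 0.85, 0.85 and 0.25, and the GC content was 58.3% (57.7 to 59.0%), 65.3%, 66.7% and 49.7%. In windows of 1 length narrow NMIs thus lay between the wider NMIs and TSSs without an NMI on all 3 measures. The windows began 250 bases before the TSS, whereas narrow NMIs reached a median of 190 bp upstream and mid-width NMIs 492 bp. More of a window could lie outside the NMI where the NMI was narrow. The differences here and in the motifs below can thus follow in part from the choice by width, which was not adjusted for. TSSs in the 197 internal NMIs had 4.33 CpG sites per 100 bp (4.0 to 5.0) and those in the 385 outermost had 5.33 (5.0 to 5.67).

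Short motifs were searched on both strands of these windows. The GC box GGGCGG, bound by Sp and Klf factors, lay in 57.4% (53.3 to 61.4%) of windows at narrow NMIs, in 75.8% (74.9 to 76.7%) at mid-width NMIs, in 23.4% (22.7 to 24.1%) at outermost TSSs without an NMI and in 38.6% of all 93148 distinct protein-coding TSSs. Values for the next 5 motifs are in this order. The Ets core CCGGAA lay in 25.6% (22.1 to 29.4%), 32.02% (31.0 to 33.0%), 6.84% (6.41 to 7.30%) and 16.9%. Of motifs without CpG, the TATA box TATAAA lay in 5.84% (4.08 to 8.07%), 3.94% (3.54 to 4.38%), 17.8% (17.1 to 18.5%) and 11.5%, and the GATA site AGATAA in 7.22% (5.25 to 9.63%), 3.56% (3.18 to 3.97%), 13.8% (13.2 to 14.5%) and 9.95%. The AP-1 site TGANTCA, bound by Fos and Jun, lay in 5.84% (4.08 to 8.07%), 3.78% (3.39 to 4.21%), 9.24% (8.73 to 9.76%) and 6.68%. The CCAAT box, bound by NF-Y, differed little, with 37.6% (33.7 to 41.7%), 35.0% (33.97 to 36.0%), 38.001% (37.1 to 38.9%) and 34.8%. Broad NMIs did not follow mid-width NMIs throughout: the GC box lay in 72.4% (67.6 to 76.9%) of their windows, the Ets core in 13.0% (9.77 to 16.8%), below narrow NMIs, the TATA box in 7.16% (4.77 to 10.2%), the GATA site in 2.65% (1.28 to 4.82%), the AP-1 site in 2.12% (0.920 to 4.14%) and the CCAAT box in 34.2% (29.4 to 39.2%).

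For the remaining 4 motifs the intervals of narrow and mid-width NMIs overlapped, as they did for the TATA box, the AP-1 site and the CCAAT box. The E-box CACGTG lay in 9.11% (6.90 to 11.7%) at narrow NMIs and in 10.2% (9.54 to 10.8%) at mid-width NMIs, against 7.07% of all TSSs. The NRF1 core TGCGCATGC lay in 3.09% (1.84 to 4.84%) and 3.38% (3.00 to 3.78%), against 1.64%, and the CRE TGACGTCA in 2.41% (1.32 to 4.00%) and 3.57% (3.19 to 3.99%), against 1.95%. The ZBTB33 site TCTCGCGAG lay in 0.687% (0.188 to 1.75%) and 1.68% (1.42 to 1.98%), against 0.809%. At broad NMIs these 4 lay in 8.22% (5.66 to 11.5%), 0.796% (0.164 to 2.31%), 2.65% (1.28 to 4.82%) and 0.531% (0.0643 to 1.90%). A match is a run of letters, not a bound site, and none of the 10 motifs contains another.

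Genes with a narrow NMI at a TSS made up 2.73% of the 21755 protein-coding genes, and 45.6% had a wider NMI at a TSS. These background shares stand beside each list of genes below, for which 31 lists were read by name pattern or by symbols. Of the 593 genes, 490 had no other NMI at a TSS, 97 had a wider NMI at another TSS (16.4%, 13.5 to 19.6%) and 9 had 2 or more narrow NMIs. In 399 of the 593 the outermost TSS itself lay in a narrow NMI.

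Zinc-finger genes named Zfp, many of which encode repressors of transposable elements and lie in clusters, had the most members with a narrow NMI. Of 394 such genes 38 had one (9.64%, 6.92 to 13.0%), 218 had a wider NMI and 142 had none. Among genes with any NMI the narrow share was 15.1% for Zfp genes and 5.69% (5.25 to 6.15%) for all 10425 protein-coding genes with an NMI. The widest NMI of a Zfp gene had a median of 1020 bp (929 to 1088 bp), against 1210 bp (1198 to 1220 bp) over all genes with an NMI. The narrowest were Zfp995 (150 bp, internal), Zfp385a (229 bp), Zfp120 (255 bp) and Zfp940 (293 bp), and the median density over the Zfp genes' narrow NMIs was 5.19 CpG sites per 100 bp. By chromosome, 11 of the 38 genes lay on 7, 5 each on 13 and 17, and 3 on 8. The number of all Zfp genes on each of these chromosomes was not set beside these counts, so they give no share by chromosome. On autosomes alone 36 of 385 Zfp genes (9.35%, 6.64 to 12.7%) had a narrow NMI, against 2.52% (2.31 to 2.75%) of the 20422 other autosomal genes.

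Interleukin receptors, which pass signals of immune cytokines, had a narrow NMI in 5 of 33 genes (15.2%, 5.11 to 31.9%) and a wider one in 6. The 5 were Il2rb (119 bp, internal), Il10ra (136 bp), Il11ra1 (248 bp, internal), Il13ra1 (316 bp) and Il1r2. Solute carriers, the membrane transporters, had one in 18 of 369 (4.88%, 2.92 to 7.60%) and a wider one in 154. Among the narrowest, beside Slc47a2 (internal), were Slc39a13, a zinc transporter (147 bp, internal), and Slc29a1, a nucleoside transporter (244 bp). Potassium channel genes had narrow NMIs in 2 of 92 (2.17%, 0.264 to 7.63%), Kcnh6 (224 bp) and Kcnmb4 (565 bp), and wider ones in 3. Chemokines and interleukins, which are secreted signals, had 3 of 72 (4.17%, 0.868 to 11.7%), Il31 (277 bp), Cxcl10 (312 bp) and Cxcl5 (530 bp), and wider ones in 4.

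Collagens had a narrow NMI in 3 of 44 genes (6.82%, 1.43 to 18.7%), Col27a1 (368 bp, internal), Col5a3 (430 bp) and Col4a3 (436 bp, internal), and a wider one in 11. Integrins and laminins had 1 of 42, Itgb3, which encodes an integrin of platelets (542 bp, 9.59 CpG sites per 100 bp), and 15 with a wider one. Hox genes, which set position along the body axis, had 4 of 39 (10.3%, 2.87 to 24.2%), Hoxa7 (273 bp), Hoxc6 (461 bp), Hoxb13 (502 bp) and Hoxb6 (530 bp, internal), and 8 with a wider one. S100 genes had 1 of 16, S100a6 (466 bp). Wnt ligands (19 genes), matrix metalloproteinases and their inhibitors (26), keratins (53), claudins (23) and serpins (61) had none, with wider NMIs at 4, 6, 1, 1 and 4 genes.

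Cytosolic ribosomal proteins had a wider NMI at 78 of 84 genes and a narrow one at none (0 to 4.30%). Mitochondrial ribosomal proteins had narrow NMIs at 4 of 78 (5.13%, 1.41 to 12.6%), Mrpl24 (403 bp), Mrpl3 (445 bp), Mrpl33 (512 bp, internal) and Mrps22 (552 bp), and wider ones at the other 74. Proteasome subunits had a wider NMI at 45 of 49 and a narrow one at 1, Psmd10 (566 bp), which shared its NMI with Atg4a and had 2.65 CpG sites per 100 bp. Aminoacyl-tRNA synthetases had a wider NMI at 33 of 34 and a narrow one at 1, Aars2 (514 bp), and histones a wider one at 60 of 82 and a narrow one at 1, Hist1h1a (494 bp). Cholesterol synthesis genes had wider NMIs at 22 of 22, and Fdft1, which makes squalene, had in addition an internal narrow one of 478 bp. Rab GTPases of membrane traffic had a wider NMI at 40 of 59 and narrow ones at 3 (5.08%, 1.06 to 14.1%), Rab13 (245 bp, internal), Rab27a (429 bp) and Rab36 (571 bp).

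Of 25 immediate-early and AP-1 genes, 24 had a wider NMI, and Nr4a1, a rapidly induced orphan nuclear receptor, had an internal narrow one as well (558 bp, chromosome 15, 101266469 to 101267026, 10.0 CpG sites per 100 bp), 12577 bp from an outermost TSS in an NMI of 899 bp. Of 29 interferon and antigen presentation genes Usp18 had one (558 bp), of 20 neuronal genes Slc17a7, which loads glutamate into vesicles (335 bp), and of 27 germline genes Brdt, a bromodomain protein of spermatocytes (452 bp, internal). Epithelial genes (24), mesenchymal genes (22), milk genes (12), immune cell genes (22), cytochrome P450 genes (94) and olfactory receptors (1093) had none, with wider NMIs at 3, 12, 2, 3, 7 and 0 genes. A gene without an NMI is a gene without one in the list used, which is no measurement of its methylation.

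Chromosome X stood apart from all 19 autosomes in the share of narrow NMIs. Of 239 NMIs at protein-coding TSSs on X, 40 were narrow (16.7%, 12.2 to 22.1%), against 542 of 9342 on autosomes (5.80%, 5.34 to 6.30%). The single autosomes ran from 3.88% on chromosome 15 to 7.39% (5.55 to 9.60%) on chromosome 7, so that the interval of X began above the highest autosomal share. The median width of all NMIs at protein-coding TSSs was 912 bp on X (832 to 981 bp) and 1179 bp on autosomes (1169 to 1189 bp). The narrow NMIs of X were not of low CpG content: their median was 6.42 CpG sites per 100 bp on X and 5.73 on autosomes, and 32 of the 40 held an outermost TSS, against 65.1% on autosomes. Counted by gene, 42 of the 257 X genes with an NMI had a narrow one (16.3%, 12.0 to 21.4%), against 5.42% (4.99 to 5.88%) of 10168 autosomal genes. No sex of the line is given by the labels.

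**Figure D5:**
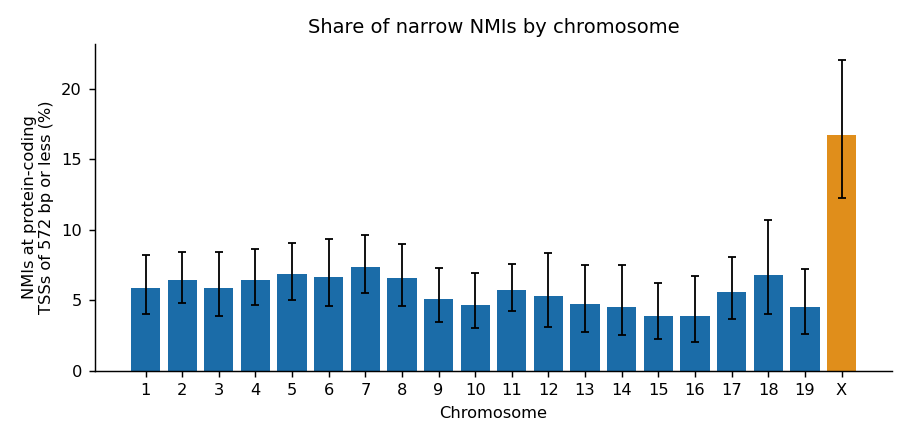
Percent of the NMIs at protein-coding TSSs that were narrow (below 572.5 bp wide, y axis) on each chromosome (x axis), with exact 95% binomial intervals, autosomes in blue and X in orange. X had 16.7% (40 of 239), and the autosomes ran from 3.88 to 7.39%.

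The genes behind the X share had varied roles. Beside Lage3 (122 bp) and Il13ra1 (316 bp, 11.7 CpG sites per 100 bp), they included genes named here after their values were seen: Flna, which encodes the actin crosslinker filamin A (434 bp, 8.99 CpG sites per 100 bp), Msn, the membrane linker moesin (429 bp, 8.16), and Porcn, which acylates Wnt proteins (550 bp, 7.64), each at an outermost TSS. Huwe1, a ubiquitin ligase (410 bp, 5.12), and Araf, a kinase of the RAF family (534 bp, 5.81), had internal ones. Of the Zfp genes, 2 of the 9 on X had a narrow NMI, and they were Zfp182 and Zfp275.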

How the data were processed

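The deposited positions, with no score, count or signal, were those of NMIs of 1 BioCAP library of C127 cells. Per the labels and methods, the authors mapped reads with Bowtie2 (mm10), kept uniquely placed ones, removed duplicates with SAMtools and called peaks with MACS (MACS2 in the submitters' notes) at a false discovery rate of 0.01. Tool versions: not given in the sources used here. Read depth is unknown, and near-identical gene copies can lose signal where reads without a unique place are discarded.

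Here NMIs on chromosomes 1 to 19 and X (13489 of 13491) were joined to GENCODE M21 TSSs (21755 protein-coding genes) with Python 3.11.15, numpy 2.4.6 and pandas 2.3.3. Sequence came from GRCm38, which shares mm10 coordinates, and lower-case bases counted as repeats. Where several TSSs lay in an NMI, the one nearest its middle gave distances, strand and lead gene. Shares carry exact (Clopper-Pearson) and medians order-statistic 95% intervals (scipy 1.17.1). The code was tested on simulated sequence.

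Named genes were set by rule: the extremes of width, CpG density, repeats, island width, distance to the outermost TSS or to another NMI and number of genes, the NMIs next to the width limit, and up to 4 genes with the narrowest NMI per list (31 lists by name pattern or symbols), passing over unnamed gene models. A few genes that the rule names are not reported here. The narrow NMIs, lists and rules were chosen with earlier results of these data known. Alternatives tried were other TSS sets and distances, a width limit of 400 bp, joined NMIs, autosomes only, other island criteria and other windows.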

Additional observations from a re-analysis of the deposited data

How the results depend on the processing

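The list holds positions of 1 library without read depth or score, so neither the call nor the width of a single NMI could be weighed, and a width depends on the threshold of the peak caller. No paired analysis was possible because all values come from 1 BioCAP library, and no replicate could be left out. Nothing was tested across NMIs or genes. Of 61 alternative values for 9 results, 44 stayed within the 95% interval or within 1.5 times the count, and 17 did not. Joining NMIs within 250 bp changed no value, since the closest lay 464 bp apart, and leaving out X kept all 9 results inside those bounds.

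With a width limit of 400 bp, 217 narrow NMIs and 222 genes remained, 2.26% of NMIs at protein-coding TSSs, with 5.42 CpG sites per 100 bp, 56.7% at an outermost TSS, 41.01% in an island and 20.3% of genes with a wider NMI too. With the basic transcript set, 5.24% were narrow, 80.5% of them held an outermost TSS, 61.9% overlapped an island and 9.62% of genes had a wider NMI too. With transcripts of the type protein_coding alone the outermost share was 73.7%. With a TSS within 250 bp, 7.14% were narrow. In 500 bp around the TSS the medians were 5.4 CpG sites per 100 bp and 0.65 for the observed/expected ratio. By the looser island criteria 90.9% overlapped an island, and within 500 bp, in place of 1000 bp, 0.515% had another NMI. The cause of the shifts was not tested beyond what each setting leaves out or adds by construction.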
